A study of Sus scrofa with 8 samples.

Results

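MHC class I molecules carry short peptides from inside the cell to its surface, where T cells read them. Peptides made in the cytosol are pumped into the endoplasmic reticulum (ER) by the transporter TAP, trimmed there by aminopeptidases, and fitted into a class I heavy chain paired with the light chain beta-2-microglobulin, while tapasin and general chaperones hold the complex ready. Pluripotent stem cells are known for low class I levels, and IRF-1 is a known activator of genes of this pathway.

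The 10 genes described here are those of this peptide loading machinery, namely TAP1, TAP2, TAPBP, TAPBPL, ERAP1, ERAP2, B2M, CALR, CANX and PDIA3. They were chosen by function, through the pig gene symbols that belong to the Ensembl identifiers of the count table. By that rule 9 of the 24358 genes in the table were found. The identifier that the reference names give to B2M has no row, and B2M was taken instead from the row ENSSSCG00000004687, which lies over a RefSeq gene of that name and over part of another, so counts are given for 10 genes and, where it matters, for the 9 without B2M.

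The study asked how overexpression of IRF-1 affects porcine induced pluripotent stem cells (piPSCs), DOX-hLIF-2i piPSCs that depend on doxycycline-inducible reprogramming factors and were made from embryonic fibroblasts of the domestic pig. Oligo(dT) RNA libraries came from IRF-1 overexpressing cells (replicates 1 and 3, here the IRF-1 libraries) and from cells with the empty vector (replicates 6 and 8, here the vector libraries), 2 per group. The former carried PB-CAG-IRF1-Flag, a piggyBac vector with Flag-tagged pig IRF1 under the constitutive CAG promoter, and the latter PB-CAG-Flag. Both groups were selected with puromycin, the labels give an LCDMV culture for both, and most feeder cells were left behind by letting them attach before RNA was taken.

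The genotype label gives overexpression of IRF-1 for all 4 libraries, and the assignment of replicates 6 and 8 to the control follows the study's legend for the numbers in the sample titles. IRF1 was therefore examined first. It had 8206 and 5485 counts in replicates 1 and 3, and 55 and 56 counts in replicates 6 and 8. These values go against the genotype label of replicates 6 and 8, and every direction given here rests on the legend. The level was 297 ± 47.1 CPM (counts scaled to library size with TMM) in the overexpressing cells and 3.36 ± 0.225 CPM in the vector cells (SD, n = 2 per group), and the counts do not separate the introduced IRF1 from the pig's own gene.

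The reads counted on genes numbered 24923319 and 20858333 in the IRF-1 libraries and 15925429 and 17097669 in the vector libraries. Within a group the replicates varied beyond counting error, with a chi-square over its degrees of freedom of 17.9 in the IRF-1 libraries and 31.3 in the vector libraries, and each was treated as a sample. Nothing in the labels says that they came from separate cultures, so p-values measure only the spread between these samples, which may be technical. For any gene taken alone, the smallest two-sided p of an exact permutation test with 2 libraries a group is 0.333, whereas edgeR borrows the spread from all genes.

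The cell type in the labels was compared with marker genes. Of 14 markers of pluripotent cells, 12 have a row. LIN28A was counted 4071 and 3875 times in the IRF-1 libraries, and 7905 and 6677 times in the vector libraries, and DNMT3B, the most abundant of those not called, had 25707 and 20918 against 10849 and 17433. Of the 10 tested, 5 were lower in the overexpressing cells (LIN28A, OTX2, CDH1, ESRRB and PODXL) and 0 were higher by edgeR, against 10.6% and 8.61% of all genes tested. At an unadjusted p under 0.05 by edgeR, 7 were lower and 1, NODAL, was higher. DESeq2 and limma-voom each called 5 lower, and NODAL was the 1 gene that each called higher. The calls of LIN28A and OTX2 were lost with glmTreat, with adjusted p up to 0.0951 and 0.0536 over ranges from 1.50e-10 and 1.81e-10. The log2 fold change of CDH1 was -2.25, and was -1.66 and -3.21 without IRF-1 replicates 1 and 3, and that of OTX2 was -1.80, and -2.44 without IRF-1 replicate 3. NANOG had between 5 and 11 counts, and the row lying over POU5F1, which encodes OCT4, had 0, 0, 0 and 1. Both of these defining markers thus had few or no counts. For the parent piPSCs the paper reports clear OCT4 staining by immunofluorescence, low OCT4 from the cells' own gene, and reprogramming factors still expressed. Whether reads from introduced OCT4 would be counted on this row is not known here. The counts therefore do not show that OCT4 was absent. SOX2 was not analysed here. The summed level of the 12 genes was 2068 and 2674 CPM in the IRF-1 libraries and 5977 and 5357 CPM in the vector libraries.

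Genes counted as called had a log2 fold change whose size was 1 or more, at an adjusted p under 0.05. Of the 10 genes, 7 were called higher in the IRF-1 overexpressing cells (6 of 9 without B2M), against 8.61% of the 13250 genes tested. The 10 genes were chosen with earlier results of these data known, so this contrast is not independent of the data. None was called lower by edgeR, DESeq2 or limma-voom, against 10.6% of the genes tested, and CALR alone was lower at an unadjusted p under 0.05. The 7 genes are the transporter, both tapasins, both trimming enzymes and the light chain, and the 3 that were not called are the ER chaperones CALR, CANX and PDIA3. The median log2 fold change of the 10 genes was 1.52, and that of all genes tested was -0.00162. Mitochondrial genes took 8.62% and 7.57% of the counts in the IRF-1 libraries and 6.29% and 6.68% in the vector libraries, without overlap. Their part in these results was not tested beyond leaving out the 37 mitochondrial and 10 most abundant genes, where 7 of the 10 genes were called higher. In bulk RNA, a change in the number of cells that express a gene and a change in the RNA per cell cannot be told apart.

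**Figure D1:**
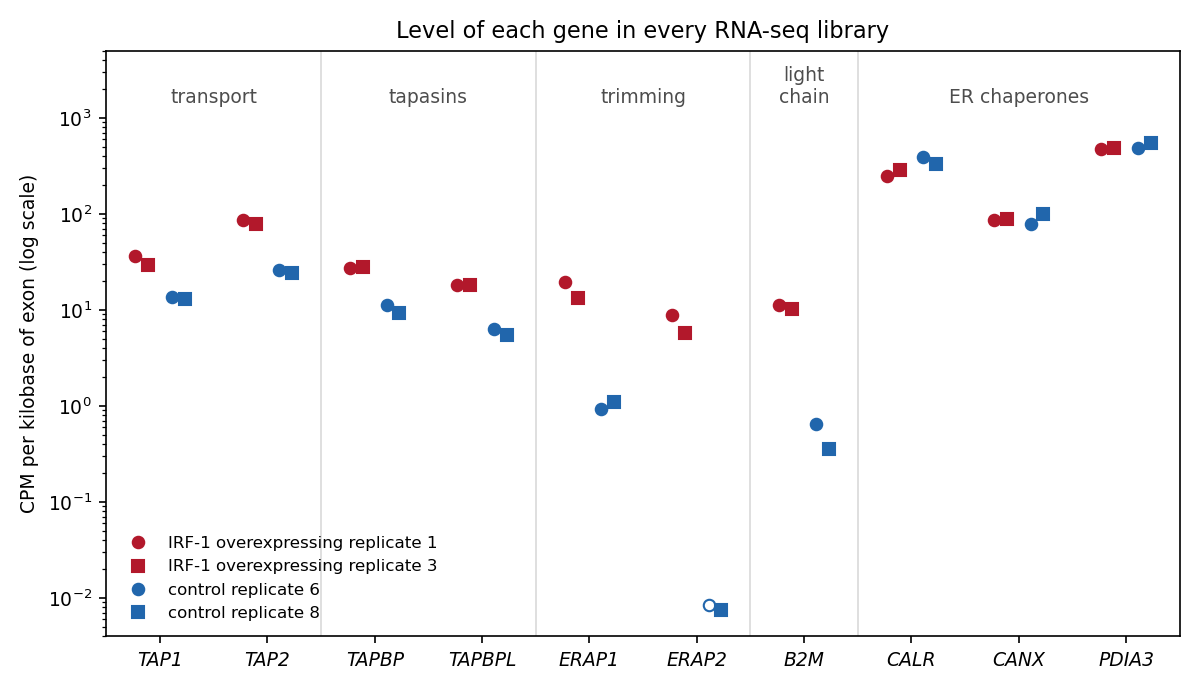
Level of the 10 genes in every library, as TMM-scaled CPM per kilobase of exon on a log axis, with circles and squares for the replicates and an open circle for a count of 0, drawn at the level of 1 count. Red points (IRF-1 libraries) lie above blue points (vector libraries, the controls) for the 7 genes from TAP1 to B2M, and lie below or among them for CALR, CANX and PDIA3.

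TAP1 and TAP2 encode the 2 subunits of the peptide transporter, which uses ATP to move peptides across the ER membrane. TAP1 (ENSSSCG00000025618, chromosome 7, 25062771 to 25072038, minus strand) was counted 2641 and 1798 times in the IRF-1 libraries, and 628 and 664 times in the vector libraries. Both IRF-1 libraries lay above both vector libraries, at 96.4 ± 14.1 CPM against 39.1 ± 1.58 CPM (SD, n = 2 per group). The log2 fold change was 1.30 (SE 0.16, adjusted p = 0.00119 by edgeR). This was the smallest of the 7 called changes and the only one whose 95% interval, from 0.94 to 1.67, reached below 1. When the change was tested against the limit of 1 with glmTreat, the adjusted p of TAP1 was 0.106, within a range of 2.16e-09 to 0.106 over the alternatives.

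TAP2 (ENSSSCG00000025593, chromosome 7, 25045174 to 25056863, minus strand) was counted 6568 and 5002 times in the IRF-1 libraries, and 1256 and 1302 times in the vector libraries. The groups did not overlap, with 252 ± 16.9 CPM and 77.4 ± 4.21 CPM (SD, n = 2 per group). This gave a log2 fold change of 1.71 (SE 0.14, adjusted p = 0.000369 in edgeR). Per kilobase of exon, TAP2 stood above TAP1 in every library, by a ratio of 2.35 and 2.63 in the IRF-1 libraries and 1.89 and 1.86 in the vector libraries. The difference between the ratios of the groups was not tested.

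TAP1 and TAP2 lie side by side in the class II region of the MHC on chromosome 7, interleaved with 2 subunits of the immunoproteasome, the form of the proteasome that favours peptides for class I. PSMB8 was annotated from 25053132 to 25073046, over the whole of TAP1 and part of TAP2, and PSMB9 from 25071712 to 25077233. PSMB8 had 4156 and 2756 counts versus 144 and 99, and PSMB9 1090 and 743 against 71 and 33. Both had larger log2 fold changes than the transporter genes, 4.34 and 3.64 (SE 0.26 and 0.37, adjusted p = 0.000145 and 0.000686 in edgeR), a difference that was not tested. The value for PSMB9 was 4.39 without vector replicate 6. Exons of TAP1 share 327 bases, 11.2% of its exon length, with PSMB9 on the opposite strand, and share 0 bases with PSMB8. The strand setting of the counting is not given in the sources used here, so it is not known to which gene reads in the shared stretch were counted.

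Tapasin, encoded by TAPBP, bridges TAP and the empty class I molecule and edits the peptides that are bound. TAPBP (ENSSSCG00000001507, chromosome 7, 29663494 to 29674077, minus strand) was counted 2020 and 1697 times in the IRF-1 libraries, and 523 and 476 times in the vector libraries. The IRF-1 libraries were almost equal once scaled, at 81.4 ± 0.194 CPM, and stood above both vector libraries, at 30.3 ± 4.43 CPM (SD, n = 2 per group). This was a log2 fold change of 1.42 (SE 0.16, adjusted p = 0.000916 in edgeR).

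TAPBPL encodes TAPBPR, a relative of tapasin that edits peptides outside the loading complex. The gene (ENSSSCG00000000704, chromosome 5, 64188187 to 64200538, minus strand) lies far from the MHC and had 2025 and 1684 counts versus 443 and 429. Its groups were also apart, with 81.2 ± 0.39 CPM against 26.4 ± 2.71 CPM (SD, n = 2 per group), and its log2 fold change was 1.62 (SE 0.15, adjusted p = 0.000522 in edgeR). The 95% intervals of both tapasins overlapped, from 1.06 to 1.79 for TAPBP and from 1.27 to 1.97 for TAPBPL. Exons of TAPBPL share 863 bases, 19.3% of its exon length, with an unnamed gene on the same strand, which had between 0 and 4 counts in each library. Per kilobase of exon, TAPBP stood above TAPBPL in every library, by a ratio of 1.51 and 1.53 in the IRF-1 libraries and 1.79 and 1.68 in the vector libraries.

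ERAP1 and ERAP2 encode the ER aminopeptidases that shorten peptides from their amino-terminal end to the length class I can hold. ERAP1 (ENSSSCG00000014171, chromosome 2, 103380001 to 103408759, minus strand) was counted 1375 and 787 times in the IRF-1 libraries, and 41 and 54 times in the vector libraries. Every overexpressing library was far above the vector libraries, at 46.6 ± 12.4 CPM against 2.86 ± 0.328 CPM (SD, n = 2 per group), although replicates 1 and 3 differed more from each other than they did for the tapasins. ERAP1 thus had a log2 fold change of 4.02 (SE 0.27, adjusted p = 0.000195 in edgeR), and 1.48% of the genes tested had a higher one.

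ERAP2 (ENSSSCG00000027860, chromosome 2, 103510717 to 103564435, plus strand) was counted 1660 and 921 times in the IRF-1 libraries, and 0 and 1 times in the vector libraries. It was thus readily counted in one group and at or under the floor of 3 counts in the other, with 55.5 ± 15.94 CPM in the overexpressing cells (SD, n = 2). The ratio of the scaled counts was 1872, with an exact 95% interval from 336 to 73990 that covers counting error only. This value rests on a single count in vector replicate 8, since it was 989 (interval 177 to 39080) without vector replicate 6 and can only be given as at least 289-fold without vector replicate 8, against the floor of 3 counts. The adjusted p was 9.79e-05 by edgeR, and the fitted fold change, which depends on the prior count, is not given. In the IRF-1 libraries ERAP1 stood above ERAP2 per kilobase of exon by a ratio of 2.23 and 2.30, and in the vector libraries no ratio can be given.

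The aminopeptidase genes are neighbours on chromosome 2, with 101957 bases between ERAP1 and ERAP2. LNPEP, which encodes insulin-regulated aminopeptidase, another enzyme of the same family that trims peptides in endosomes, starts 3166 bases beyond ERAP2. It was counted 1229 and 693 times in the IRF-1 libraries, and 191 and 337 times in the vector libraries, with no overlap between the scaled groups. Its log2 fold change was 1.39 (SE 0.28, adjusted p = 0.00862 in edgeR), and the call was lost with glmTreat, where the adjusted p reached 0.217 over a range from 6.55e-07. On the other side of ERAP1, 1377 bases away, the unnamed gene ENSSSCG00000014170 had 903 and 528 counts versus 1049 and 1093. It was called lower, at a log2 fold change of -1.07 (SE 0.20, adjusted p = 0.00616 in edgeR), and the call was lost at -0.83 without IRF-1 replicate 3 and with glmTreat, with adjusted p from 7.48e-06 to 0.791 over the alternatives.

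B2M encodes the light chain that every classical class I molecule needs to fold and reach the surface. The row over B2M (chromosome 1, 126834580 to 126872431, minus strand) was counted 1776 and 1344 times in the IRF-1 libraries, and 65 and 40 times in the vector libraries. The groups were far apart, at 68.0 ± 4.86 CPM against 3.22 ± 1.33 CPM (SD, n = 2 per group). The log2 fold change was 4.41 (SE 0.28, adjusted p = 0.000173 in edgeR), similar in size to that of ERAP1, whose 95% interval of 3.40 to 4.65 overlapped its own of 3.76 to 5.05. RefSeq places 2 genes named B2M there, from 126837721 to 126844043 and from 126865767 to 126878501, the latter only partly under the row. The counts of these copies cannot be separated, and how reads matching both were treated is not given in the sources used here, so the level of B2M is uncertain.

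B2M stood below the transporter and the chaperones in every library. Per kilobase of exon, TAP1 exceeded B2M by a ratio of 21.1 and 36.3 in the vector libraries and by 3.25 and 2.93 in the IRF-1 libraries. PDIA3 exceeded B2M by 746 and 1526 in the vector libraries and by 42.7 and 48.2 in the IRF-1 libraries. These ratios take the exon length of the row, 6392 bases, which holds sequence of both copies.

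Calreticulin (CALR), calnexin (CANX) and ERp57 (PDIA3) are general folding helpers of the ER, which also take part in the assembly of class I molecules. Calreticulin is a soluble chaperone that binds sugar chains of new glycoproteins. CALR (ENSSSCG00000013746, chromosome 2, 66097914 to 66102102, minus strand) was counted 14089 and 13561 times in the IRF-1 libraries, and 13934 and 13136 times in the vector libraries. Once scaled, both IRF-1 libraries lay below both vector libraries, at 609 ± 60.0 CPM against 821 ± 99.5 CPM (SD, n = 2 per group). The log2 fold change of -0.43 (SE 0.14, 95% interval -0.77 to -0.09) had an adjusted p of 0.0599 in edgeR and was not called. Over the other settings with all 4 libraries its adjusted p ranged from 0.0251 to 1.00, and with a library left out from 0.00824 to 0.413.

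Calnexin is the membrane-bound partner of calreticulin and binds newly made heavy chains. CANX (ENSSSCG00000014020, chromosome 2, 78877603 to 78915834, minus strand) was counted 13598 and 11614 times in the IRF-1 libraries, and 7723 and 11090 times in the vector libraries. Its scaled levels overlapped, with 547 and 558 CPM in the IRF-1 libraries between 494 and 634 CPM in the vector libraries. The log2 fold change was -0.03 (SE 0.15, 95% interval -0.38 to 0.32, adjusted p = 0.907 in edgeR), and it was above 0, at 0.17, without vector replicate 8.

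ERp57 is an oxidoreductase that is bound to tapasin through a disulfide bond in the loading complex. PDIA3 (ENSSSCG00000004700, chromosome 1, 127786174 to 127814096, minus strand) was counted 18034 and 15411 times in the IRF-1 libraries, and 11539 and 14526 times in the vector libraries. The scaled groups overlapped, at 733 ± 10.6 CPM against 784 ± 65.0 CPM (SD, n = 2 per group), and the log2 fold change was -0.10 (SE 0.13, 95% interval -0.39 to 0.20, adjusted p = 0.605 in edgeR). The intervals of CALR, CANX and PDIA3 all ended below the called changes of the other 7 genes, and none reached 1 in size.

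The level of the 10 genes was ordered per kilobase of exon. In the overexpressing cells PDIA3 stood first with 482 ± 6.97 CPM per kilobase, followed by CALR (266 ± 26.1), CANX (88.0 ± 1.24) and TAP2 (81.8 ± 5.47). TAP1 (33.0 ± 4.81), TAPBP (27.6 ± 0.0659), TAPBPL (18.2 ± 0.0872), ERAP1 (16.5 ± 4.38), B2M (10.6 ± 0.76) and ERAP2 (7.29 ± 2.09) came after them, each in CPM per kilobase (SD, n = 2). The libraries of neighbours in this order did not overlap, except those of TAPBPL and ERAP1.

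The vector cells had the same order over a far wider range. PDIA3 stood at 516 ± 42.8 CPM per kilobase and CALR at 358 ± 43.4, and TAP2, the highest of the 7 called genes, at 25.1 ± 1.36. TAPBPL stood at 5.92 ± 0.605, ERAP1 at 1.01 ± 0.116 and B2M at 0.504 ± 0.207 CPM per kilobase (SD, n = 2). The rank of 0 of the 10 genes differed between the groups per kilobase, and that of 4 differed when CPM was used without length.

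The sum of the 10 levels was close in all libraries, at 1019 and 1043 CPM per kilobase in the overexpressing cells and 1012 and 1027 in the vector libraries, while its make-up differed. The 3 chaperones took 79.7% and 82.5% of the sum in the IRF-1 libraries and 94.2% and 94.8% in the vector libraries. The transporter took 12.0% and 10.3% against 3.93% and 3.61%. The tapasins took 4.49% and 4.39% against 1.75% and 1.43%, and the trimming enzymes 2.78% and 1.84% against 0.0918% and 0.107%. The light chain took 1.10% and 0.970% against 0.0643% and 0.0348%. For each of these roles the groups did not overlap, and the shares were not tested. Shares within a library add up to the whole, so the roles are not separate results. With 2 libraries a group, the smallest two-sided p of an exact permutation test is 0.333, so the lack of overlap says little.

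The nearest tested genes on either side of each of the 10 were compared with them. Leaving out the 10 genes themselves, there were 17 such neighbours, of which 4 were called higher, 2 lower and 11 not called. Of all genes tested, 8.61% were called higher and 10.6% lower. The same shares stand beside the counts of every list and marker set below. The 4 higher neighbours are PSMB8, PSMB9 and LNPEP, described above, and HLA-DOB. This last is a class II gene before TAP2 with 163 and 99 counts versus 26 and 10. HLA-DOB had a log2 fold change of 2.35 (SE 0.52, adjusted p = 0.0125 in edgeR), and the call was lost without IRF-1 replicate 1 and with glmTreat, with adjusted p from 1.26e-05 to 0.0689 over the alternatives. Its value was 3.29 without vector replicate 6. All 4 lie beside TAP1, TAP2 or ERAP2.

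Beside TAPBP, TAPBPL and B2M, no neighbour was called higher. TAPBP lies 606 bases from RGL2, which had 156 and 156 counts versus 143 and 68, and 2778 bases from DAXX, which had 1504 and 1317 against 638 and 923. Neither was called, with log2 fold changes of 0.08 and 0.40. Both IRF-1 libraries lay above both vector libraries for DAXX once scaled, and its value was 0.61 without vector replicate 8 (adjusted p = 0.0159, from 0.0159 to 0.354 with 1 library left out and from 0.0798 to 1.00 over the other alternatives), below the limit on size. The value for RGL2 went from -0.40 without vector replicate 8 to 0.82 without vector replicate 6, and was -0.04 without IRF-1 replicate 3. Beside TAPBPL, LTBR was lower, with 38 and 50 counts versus 198 and 155, a log2 fold change of -2.46 (SE 0.37, adjusted p = 0.00259 in edgeR), and an unnamed gene on its other side was not called (0.08, and below 0 at -0.04 without IRF-1 replicate 1 and -0.26 without vector replicate 8). Beside B2M, TERB2 and SPG11 were not called (-0.73 and -0.14).

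Of the neighbours of the chaperone genes, none was called. Log2 fold changes were 0.53 for FARSA beside CALR, -0.06 for MAML1 and 0.09 for HNRNPH1 beside CANX, and -0.34 for an unnamed gene and -0.08 for CATSPER2 beside PDIA3. FARSA had an adjusted p of 0.0224 in edgeR, below the limit on p but not on size. The values of MAML1, HNRNPH1 and CATSPER2 changed sign when a library was left out, to at most 0.01, -0.01 and 0.14.

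**Figure D2:**
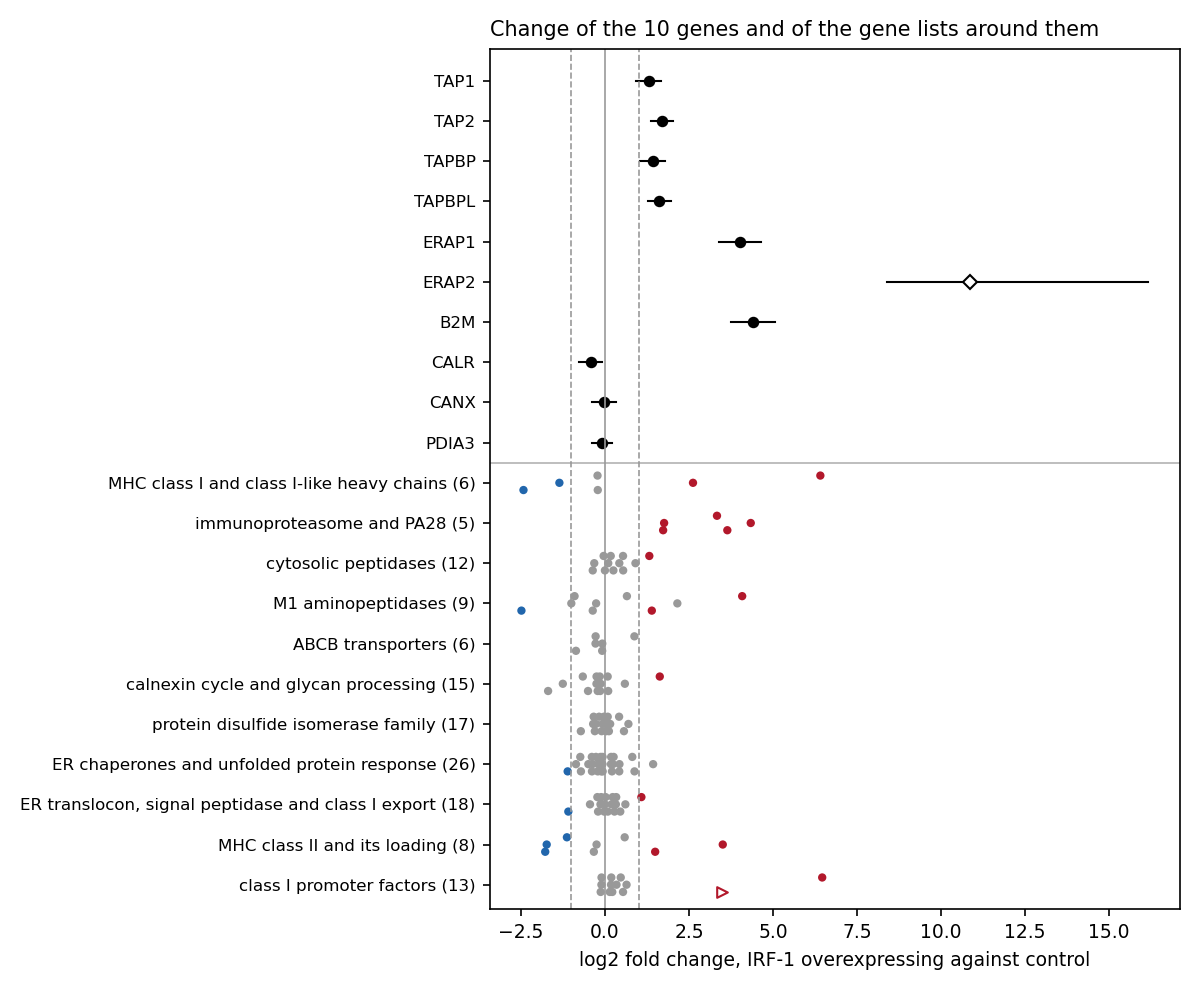
Log2 fold change between IRF-1 and vector libraries for the 10 genes with their 95% intervals (open diamond, ERAP2 as the ratio of scaled counts with its counting interval) and for each tested gene of the lists (number tested in brackets, red called higher, blue called lower, grey not called, open triangle the lower bound of NLRC5). The transporter, tapasins, trimming enzymes, B2M and all 5 immunoproteasome and PA28 genes lie to the right of the dashed line at 1, and most genes of the chaperone lists lie between the dashed lines.

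The class I heavy chains are the clients of this machinery, and the list made for them also holds class I-like genes. Of 17 genes listed, 7 have a row and 6 were tested, of which 2 were called higher and 2 lower, with a median of -0.22. Those tested are the rows at SLA-1 and SLA-8 and the class I-like genes MR1, HFE, FCGRT and PROCR. The genes called lower, FCGRT and PROCR, are class I-like, so the counts and the median are not of the clients alone. A row spanning SLA-6 and SLA-7 is not in this list and is given at the end. A row at the position of SLA-1 (ENSSSCG00000001229, chromosome 7, 22823841 to 22962547) was counted 490 and 467 times in the IRF-1 libraries, and 4 and 4 times in the vector libraries. Its log2 fold change was 6.41 (SE 0.35, adjusted p = 0.00011 in edgeR), above those of B2M and ERAP1. RefSeq places 4 class I genes in its span (SLA-1, SLA-2, SLA-3 and SLA-5), which these counts cannot separate.

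SLA-8 and the class I-like genes differed in direction. SLA-8 had 757 and 535 counts versus 572 and 502, with overlapping scaled groups and -0.22 as log2 fold change (adjusted p = 0.444 in edgeR). HFE, a class I-like regulator of iron uptake that also pairs with B2M, had 74 and 47 counts versus 6 and 8, a log2 fold change of 2.62 (SE 0.48, adjusted p = 0.00616 in edgeR, from 0.000137 to 0.0558 over the alternatives, the highest without IRF-1 replicate 1, where the call was lost). FCGRT, the heavy chain of the neonatal Fc receptor, was lower with 234 and 240 counts versus 479 and 403 (log2 fold change -1.36, adjusted p = 0.00444 in edgeR, from 5.86e-06 to 0.175 over the alternatives, lost with glmTreat). PROCR had between 3 and 21 counts, and its call as lower (adjusted p = 0.0348) was lost with DESeq2, with glmTreat and without either IRF-1 replicate or vector replicate 6, over a range of 0.0292 to 0.257. Its log2 fold change was -2.43, and -1.80 without vector replicate 6.

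The proteasome subunits and activator that supply peptides moved with the transporter. All 5 listed genes of the immunoproteasome and PA28 were called higher, with a median log2 fold change of 3.33. PSMB10 had 4200 and 3030 counts versus 245 and 272, a log2 fold change of 3.33 (SE 0.16, adjusted p = 9.79e-05 in edgeR). PSME2, a subunit of PA28, had 618 and 478 counts versus 111 and 123, a log2 fold change of 1.76 (SE 0.21, adjusted p = 0.00107 in edgeR). PSME1, the other subunit, had only 83 and 39 counts versus 12 and 14, and its call was lost with DESeq2, with glmTreat and without IRF-1 replicate 1 or either vector replicate, over a range of adjusted p of 0.00618 to 0.285.

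Cytosolic peptidases destroy or shorten peptides before TAP can take them. Of 12 listed and tested, 1 was called higher, NLN (neurolysin), with 2578 and 1785 counts versus 462 and 811, a log2 fold change of 1.32 (SE 0.23, adjusted p = 0.0046 in edgeR, from 3.60e-08 to 0.213 over the alternatives, lost with glmTreat). The most abundant, LAP3 and BLMH, had log2 fold changes of -0.32 and -0.003, and that of BLMH was above 0 without IRF-1 replicate 1 (0.04) or vector replicate 8 (0.002). The median of the list was 0.21.

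ERAP1 and ERAP2 belong to the M1 family of aminopeptidases. Of the 9 other members tested, 2 were called higher and 1 lower, with a median log2 fold change of -0.26. Besides LNPEP, TRHDE, which encodes a peptidase that breaks down thyrotropin-releasing hormone, was higher, with 130 and 88 counts versus 6 and 3, a log2 fold change of 4.08 (SE 0.52, adjusted p = 0.00142 in edgeR), and 4.74 without vector replicate 6. ANPEP, a peptidase of the cell surface, was lower with 13 and 19 counts versus 73 and 59 (log2 fold change -2.49, adjusted p = 0.00656 in edgeR, from 3.11e-05 to 0.0501 over the alternatives, lost without IRF-1 replicate 1).

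TAP1 and TAP2 belong to the ABCB family of transporters. Of the 6 other members tested, 0 were called by edgeR, DESeq2 or limma-voom, and 1 was higher at an unadjusted p under 0.05. This was ABCB1, the multidrug transporter, named after its values were seen, and had a log2 fold change of 0.87 (adjusted p = 0.0044 in edgeR), below the limit on size. ABCB8, a mitochondrial transporter and the most abundant, had a log2 fold change of -0.28, and the median of the list was -0.18.

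CALR, CANX and PDIA3 were set beside the folding machinery they belong to. Of 15 other genes of the calnexin cycle and glycan processing, 1 was called higher, CLGN, a relative of calnexin known from testis, with 1846 and 996 counts versus 328 and 324, a log2 fold change of 1.63 (SE 0.23, adjusted p = 0.00218 in edgeR). UGGT1 and GANAB, the most abundant, had log2 fold changes of 0.08 and -0.25, and that of UGGT1 was -0.15 without IRF-1 replicate 1 and -0.08 without vector replicate 6. The list had a median of -0.17.

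Of 17 tested relatives of PDIA3 in the protein disulfide isomerase family, 0 were called by edgeR, DESeq2 or limma-voom, with 2 higher and 2 lower at an unadjusted p under 0.05 and a median of -0.03. P4HB, the most abundant, had 14216 and 12147 counts versus 9404 and 11158 (log2 fold change -0.10), while PDIA6 stood at -0.18, or 0.08 without vector replicate 6. Of 26 ER chaperones and genes of the unfolded protein response, 0 were called higher and 1 lower, with 3 higher and 5 lower at an unadjusted p under 0.05 and 0 called by DESeq2 or limma-voom. HSPA5 and HSP90B1, the main ER chaperones, had log2 fold changes of -0.13 and -0.27, beside a median of -0.09. The lower gene was DDIT3, with 64 and 47 counts versus 96 and 76, a log2 fold change of -1.11 and an adjusted p of 0.04998 in edgeR. Its call was lost with glmTreat, DESeq2-type size factors, counts without the mitochondrial and most abundant genes, and without either IRF-1 replicate or vector replicate 6, over a range of 0.0236 to 0.833.

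Of 18 tested genes of the ER translocon, signal peptidase and class I export, 1 was called higher and 1 lower, around a median of 0.05. SEC11C, a catalytic subunit of signal peptidase, had 1891 and 1418 counts versus 523 and 606, a log2 fold change of 1.08 (SE 0.15, adjusted p = 0.00169 in edgeR, from 8.04e-07 to 0.624 over the alternatives, lost with glmTreat). BCAP29, a membrane protein of ER export, had 332 and 326 counts versus 406 and 627, a log2 fold change of -1.09 (SE 0.22, adjusted p = 0.00909 in edgeR). The call of BCAP29 was lost with glmTreat, without IRF-1 replicate 1 and, at -0.83, without vector replicate 8, with adjusted p from 0.000101 to 0.741.

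Class II molecules present peptides from endosomes and use their own loading genes. Of 8 tested genes of this list, 2 were called higher and 3 lower, and the median was -0.29. HLA-DOB, called higher as a neighbour of TAP2, is not counted among them, since the list names it SLA-DOB, a symbol with no row. SLA-DQB1, near the TAP genes, had 87 and 58 counts versus 4 and 5, a log2 fold change of 3.51 (SE 0.50, adjusted p = 0.00216 in edgeR), and IFI30, a thiol reductase of endosomes, had 908 and 575 against 244 and 127 (log2 fold change 1.49, adjusted p = 0.0154 in edgeR). The call of IFI30 was lost with glmTreat and without IRF-1 replicate 1, with adjusted p from 1.24e-06 to 0.220, and its value was 2.14 without vector replicate 6. The protease gene CTSL was lower with 181 and 215 counts versus 483 and 516 (log2 fold change -1.78, adjusted p = 0.00148 in edgeR). CD74, the invariant chain, had 17 and 21 counts versus 58 and 34, and its call as lower (adjusted p = 0.0349) was lost with glmTreat and without either IRF-1 replicate or vector replicate 6, over a range of 0.00633 to 0.237. CIITA, the class II transactivator, had 43 and 36 counts versus 60 and 66, and its call as lower (log2 fold change -1.13, adjusted p = 0.0495) was lost with DESeq2, with glmTreat and with any 1 library left out, over a range of 0.0388 to 0.788.

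Of 13 tested factors that act on class I promoters, 2 were called higher and 0 lower, against 8.61% and 10.6% of all genes tested. One was IRF1, which the cells were made to overexpress, so its call follows from the design and is no result about these factors. The other was NLRC5, the transactivator of class I genes. NLRC5 was counted 57 and 36 times in the IRF-1 libraries, and 0 and 0 times in the vector libraries, so it was at least 11.07-fold higher against a floor of 3 counts per library (adjusted p = 0.00231 in edgeR). The median of the list was 0.22.

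The ligands of interferon signalling, a known inducer of this machinery, were close to absent from the table. Of 12 listed, 7 have a row and 0 had enough counts to be tested. IFNB1 had 0 counts in every library, and 6 of the 7 had at most 3 counts in every library, the other being IFN-DELTA-1 with 8, 6, 8 and 7. Their summed level was 0.483 and 0.481 CPM in the IRF-1 libraries and 0.576 and 0.686 CPM in the vector libraries.

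Markers of other cell types were counted, since leukocytes express the machinery strongly. Of 14 leukocyte markers, 8 had at most 3 counts in every library, and the defining markers CD3E and MS4A1 had 0 counts in all 4 libraries and PTPRC 0, 0, 0 and 1. LCP1 (L-plastin), the most abundant, was counted 5809 and 3105 times in the IRF-1 libraries, and 30 and 21 times in the vector libraries (log2 fold change 6.95, adjusted p = 9.79e-05 in edgeR), and CORO1A had 623 and 350 against 57 and 56 (log2 fold change 2.61, adjusted p = 0.000912 in edgeR). These 2 were the only markers of the list that were called. The summed level of the list was 268 and 175 CPM in the IRF-1 libraries and 19.1 and 13.9 CPM in the vector libraries, of which LCP1 and CORO1A made up 259 and 166 CPM against 5.57 and 4.40 CPM. The median log2 fold change of the 6 tested markers was -0.28. LCP1 and CORO1A thus moved with the 7 called genes, and their part in that change was not tested.

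Of 10 fibroblast markers, 6 were tested, with 1 called higher and 4 lower, and the summed level was 1181 and 945 CPM in the IRF-1 libraries and 1321 and 1181 CPM in the vector libraries. VIM was the most abundant, with 25724 and 17794 counts versus 17258 and 18760, and the defining markers LUM and DCN had at most 3 counts in the IRF-1 libraries. The higher gene was COL1A2, with 3458 and 1690 counts versus 1006 and 699, whose call was lost with glmTreat and without IRF-1 replicate 1 (log2 fold change 0.65) or vector replicate 8 (0.78), over adjusted p from 8.24e-06 to 0.862. Of the lower genes PDGFRB, THY1, DCN and COL1A1, THY1 was lost with limma-voom, with glmTreat and without either IRF-1 replicate or vector replicate 6 (0.113, over a range from 1.68e-05 to 0.126), and DCN without IRF-1 replicate 3 (0.0557, over a range from 0.00155). Of 5 endothelial markers with a row, 2 of the 4 tested, TEK and TIE1, were called lower, TIE1 not without either IRF-1 replicate or vector replicate 6 (adjusted p from 0.000522 to 0.0651), and CDH5 had at most 1 count. Their summed level was 3.54 and 6.78 CPM in the IRF-1 libraries and 59.3 and 65.5 CPM in the vector libraries, most of it from TEK. The part of these genes in the results was not tested.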

How the data were processed

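What the authors deposited is a table of raw read counts by gene, not normalized, beside the Length of each gene's exons in bases (unit: other). Per the study's methods and the submitters' processing notes, reads were mapped to Sus scrofa 11.1 with HISAT2 2.0.4 and counted with featureCounts 1.6.4. The annotation release, strand setting and treatment of multi-mapped reads are not given in the sources used here. The ChIP-seq libraries were not analysed here.

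Of 24358 identifiers, 14692 had a symbol in the reference names, and 16 further rows, B2M among them, were named by their position on RefSeq genes. Counts were tested with edgeR 4.0.16 in R 4.3.3 (TMM factors between 0.982 and 1.02, filterByExpr by group, quasi-likelihood test, Benjamini-Hochberg adjustment over 13250 genes). The standard error is the log2 fold change divided by the square root of F. A count of 3, the floor, was worth between 0.121 and 0.192 CPM; floors and counting intervals cover counting error only. Alternatives were other scalings and filters, DESeq2 1.42.0, limma-voom (limma 3.58.1), glmTreat (a test against the fold limit), no fold minimum, counts without 37 mitochondrial and the 10 most abundant genes, and each library left out. Scripts were tested on simulated data. The groups come from the study's legend, against the genotype label of 2 libraries. Figures were drawn with matplotlib 3.10.9 and tables made with pandas 2.3.3 and numpy 2.4.6, in Python 3.11.15.

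Named genes are the 10, IRF1, NLRC5, the nearest tested neighbours and, from each list, up to 4 called genes with the smallest adjusted p, or the 2 most abundant where fewer than 2 were called; others were named after their values were seen, and some genes of this rule are not reported here. Members and lists were chosen with earlier results of these data known.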

Additional observations from a re-analysis of the deposited data

How the results depend on the processing

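The alternatives were other scalings (upper quartile, library totals alone, DESeq2-type size factors), other filters, DESeq2, limma-voom, glmTreat, no minimum fold change, counts without mitochondrial genes and the 10 most abundant, and each library left out in turn. With a library left out, the lone sample of its group is assumed to vary like the other group. The planned search for motifs in promoters was not run.

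Of the 10 genes, 7 were called higher under each alternative except glmTreat, which called 6, and 0 were called lower under any. TAP1, at a log2 fold change of 1.30, which glmTreat takes from the same fit, was not called by it. With a library left out in turn, log2 fold changes ranged from 4.04 to 4.89 for B2M, 1.16 to 1.45 for TAP1, 1.65 to 1.78 for TAP2, 1.29 to 1.58 for TAPBP, 1.53 to 1.73 for TAPBPL, 3.74 to 4.28 for ERAP1, -0.54 to -0.30 for CALR and -0.18 to -0.0015 for PDIA3. The ratio of scaled counts of ERAP2 ranged from 989 to 2213, and was at least 289 without vector replicate 8. CANX, which was not called, ranged from -0.20 to 0.17 and was above 0 without vector replicate 8. The rank of 4 genes rather than 0 differed between the groups without length. Over all genes, glmTreat called 611 higher and 603 lower, no minimum fold change 1842 and 2054, and leaving out IRF-1 replicate 1 gave 756 and 874. The cause of these differences was not tested.

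With glmTreat, the count called higher was 0 for cytosolic peptidases, 1 for M1 aminopeptidases, 0 for the translocon and 1 for class II, and the count called lower was 0 for heavy chains, ER chaperones and the translocon and 1 for class II. With no minimum fold change, the count called higher was 3 for cytosolic peptidases, 1 for ABCB transporters, 2 for the calnexin cycle and 1 for disulfide isomerases, and the count called lower was 2 for M1 aminopeptidases, the calnexin cycle and the translocon and 3 for ER chaperones. The count of lower ER chaperones was 0 with DESeq2-type size factors, DESeq2, limma-voom or without the most abundant genes. The count of lower heavy chains was 1 with the 1 CPM filter or DESeq2. In this paragraph heavy chains means the whole list, class I-like genes included. For the immunoproteasome and PA28, the count called higher was 4 with glmTreat or DESeq2. For M1 aminopeptidases it was 3 with no filter or no minimum fold change. With a library left out, counts called higher ranged from 1 to 2 for heavy chains, cytosolic peptidases and class II and from 0 to 2 for ER chaperones. Counts called lower ranged from 1 to 2 for heavy chains and class II, 0 to 2 for M1 aminopeptidases and ER chaperones and 0 to 1 for the translocon.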

Other observations

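A stretch of chromosome 7 with MHC genes, 3 of the 10 among them, was scanned, and it was chosen after the values were seen. It runs from the first class I row at 22823841 to the end of TAPBP at 29674077. The stretch is not the MHC alone, since genes such as BMP5 and KHDRBS2 also lie in it. Of 102 tested genes there, 14 were called higher and 8 lower, which is 13.7% and 7.84% against 8.61% and 10.6% of all genes tested, and the median log2 fold change there was 0.07. The 14 include TAP1, TAP2 and TAPBP, so nothing particular to the stretch is read from these shares. Between 24939676 and 25077233, the class II genes SLA-DQB1 and HLA-DOB, an unnamed gene, TAP2, PSMB8, TAP1 and PSMB9 were called higher, HLA-DOB not without IRF-1 replicate 1 or with glmTreat.

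Among the lower genes, named after their values were seen, DDR1, a collagen receptor, was counted 2651 and 4049 times in the IRF-1 libraries, and 9264 and 8572 times in the vector libraries (log2 fold change -1.85, adjusted p = 0.00245 in edgeR). AIF1, a marker of macrophages that the leukocyte list does not hold, was lower, with 868 and 538 counts against 2640 and 2085 (log2 fold change -2.24, adjusted p = 0.000655 in edgeR). A further class I row, ENSSSCG00000001398, which spans SLA-6 and SLA-7, had 155 and 163 counts against 81 and 60, and its log2 fold change of 0.71 was not called (adjusted p = 0.155 in edgeR). A row over SLA-5 alone had 5 and 4 counts in the IRF-1 libraries and 0 in both vector libraries, too few to be tested.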
